A study of Mus musculus with 29 samples.

Results

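The Notch pathway was followed through 10 genes, chosen by gene symbol among the 36172 gene rows of a TRAP-RNAseq experiment on mouse brain. They were the receptors Notch1, Notch2 and Notch3, the ligands Jag1 and Dll1, the transcription factor Rbpj, the target genes Hes1, Hes5 and Hey1, and the adaptor Numb. The experiment used NuTRAP mice, in which Cre recombinase switches on an EGFP-tagged copy of the ribosomal protein L10a. Ribosomes with the tag were pulled from a homogenate of hemisected brain with an antibody against GFP, and the RNA of each fraction was sequenced. The study set out to read the RNA of a chosen cell type without sorting cells.

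The libraries fell into 6 groups. Aldh1l1-cre/ERT2+; NuTRAP+ mice carried the Cre under the Aldh1l1 promoter, which is active in astrocytes, and gave the positive fraction (RNA on the beads, n = 3) and the negative fraction (RNA left unbound, n = 3) of mice 290, 293 and 294. Cx3cr1-cre/ERT2+; NuTRAP+ mice carried the Cre under the Cx3cr1 promoter, which is active in microglia and in other mononuclear phagocytes. Mice 155, 192, 194, 209, 210 and 277 of this line gave the positive fraction, the negative fraction and the input, which is the cleared homogenate (n = 6 each). Whole tissue RNA, isolated without a pulldown, came from 5 of these mice and not from mouse 155. The labels call these libraries Slice, and in comparisons with them a difference in the piece of brain taken was not tested. All mice had 1 Cre allele and 1 NuTRAP allele, were about 3 months old when given tamoxifen by injection on 5 consecutive days, and were of both sexes, without the sex of each mouse in the labels. The paper delayed collection of Cx3cr1 brains to 3 to 4 weeks after tamoxifen. For Aldh1l1 brains it gives 1 week in its flow cytometry and imaging work. For the Aldh1l1 line, input and whole tissue RNA were not analysed here. In such bulk RNA, fewer cells of a type and less RNA per cell cannot be told apart.

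Notch receptors are single-pass membrane proteins that bind ligands of the Jagged and Delta-like families on a neighbouring cell. Ligand binding exposes the receptor to cleavage by ADAM proteases and then by gamma-secretase, and the freed intracellular domain enters the nucleus and joins the DNA-binding protein RBPJ to switch on genes of the Hes and Hey families. Hes and Hey proteins are transcriptional repressors, and in the brain the pathway is known for keeping neural stem cells undifferentiated, for favouring glial over neuronal fate and, through Notch3, for the health of vascular smooth muscle. NUMB is an adaptor that sends Notch receptors to endosomes and thereby limits the signal.

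Library totals lay between 4260949 counts, for mouse 210 whole tissue, and 26857866 counts, for an input library, and from 8782235 to 25137834 in the Aldh1l1-NuTRAP fractions. All 10 genes passed the filter on low counts in both groups of each of the 8 comparisons of groups. The cell type labels held against marker genes: Aldh1l1 itself was at 540 ± 40.4 CPM (counts per 1000000 counts of the library, SD, n = 3) in the Aldh1l1 positive fraction and 71.4 ± 13.3 in the negative, and the summed CPM of 11 astrocyte markers was 17750.2 to 26810.5 against 3356 to 4383. In the Cx3cr1 positive fraction the 12 microglial markers summed to 3585 to 8620 CPM against 433 to 475 in input, while astrocyte markers still summed to 2999.64 to 4664 CPM there against 4933 to 5315 in input. Among the Cx3cr1 positive libraries that of mouse 194 stood apart, with the highest microglial sum and the lowest astrocyte, neuron and oligodendrocyte sums. Among the whole tissue libraries that of mouse 210 had the lowest total count, the lowest endothelial sum and the highest microglial and neuronal sums.

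The promoter of Hes5 is shown because Hes5 had the largest fold change of the 10 genes in astrocyte RNA, and short windows of Lfng and Hey2, pathway genes described further on, are shown for the same motif. The sequences are from RefSeq on GRCm38.p6, written 5′ to 3′ on the strand of the gene, and capitals mark GTGGGAA, the letters RBPJ is known to bind, or its reverse complement TTCCCAC. The Hes5 sequence is the 250 bases before the start of the gene, chr4:154960673-154960922 on the plus strand. The Lfng window is chr5:140607216-140607245 on the plus strand and the Hey2 window is chr10:30842973-30843002 on the minus strand.
Hes5: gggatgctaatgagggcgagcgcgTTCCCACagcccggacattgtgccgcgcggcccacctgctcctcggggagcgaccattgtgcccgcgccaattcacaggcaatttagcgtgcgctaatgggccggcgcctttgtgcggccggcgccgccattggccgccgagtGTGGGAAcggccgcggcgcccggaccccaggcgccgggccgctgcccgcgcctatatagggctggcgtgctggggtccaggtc
Lfng: cttgtccgtatcccacGTGGGAAggagaga
Hey2: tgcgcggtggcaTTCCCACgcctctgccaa

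The Hes5 promoter held the motif at -226, on the opposite strand, and at -83, on the strand of the gene, counted from the start site. Windows from 250 bases before to 50 bases after a start site, read on both strands, held GTGGGAA in 6.4% of the 32851 promoters of the table. They were found for 8 of the 10 genes, as 12 windows, without Hes1 and Hey1. Of these 12 windows 1, that of Hes5, held GTGGGAA. The shorter core TGGGAA, which lies within GTGGGAA, was in 3 of the 12, those of Hes5 and of both Rbpj windows, against 25.6% of all promoters. The letter patterns that Hes and Hey proteins are known to bind were searched as well, CACNAG (5 of the 12 windows against 42.5%) and CACGTG (0 of the 12 against 7.2%). The matches describe letters and say nothing of binding in these samples.

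On the mm10 build the genes lie as follows. On chromosome 2 are Notch1 (Entrez 18128, 26457902 to 26503822, minus strand) and Jag1 (Entrez 16449, 137081451 to 137116520, minus strand). On chromosome 3 are Hey1 (Entrez 15213, 8663359 to 8667038, minus strand) and Notch2 (Entrez 18129, 98013538 to 98150367, plus strand). Hes5 (Entrez 15208) is on chromosome 4 at 154960923 to 154962371, plus strand, and Rbpj (Entrez 19664) on chromosome 5 at 53555779 to 53657445, plus strand. Numb (Entrez 18222) is on chromosome 12 at 83794034 to 83842358, minus strand, and Hes1 (Entrez 15205) on chromosome 16 at 30065357 to 30067796, plus strand. Chromosome 17 holds Dll1 (Entrez 13388, 15367354 to 15375823, minus strand) and Notch3 (Entrez 18131, 32120893 to 32166852, minus strand).

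Between genes, levels were compared as CPM per kilobase of merged exons. In the Aldh1l1 positive fraction Hes5 stood highest at 59.5 ± 12.3 CPM per kilobase (SD, n = 3), before Hey1 at 39.6 ± 5.48 and Hes1 at 13.8 ± 3.60. The 3 receptors had like levels there, between 3.93 ± 1.09 for Notch1 and 4.81 ± 1.77 for Notch3. Dll1 was lowest at 0.566 ± 0.143 CPM per kilobase. In the Cx3cr1 positive fraction the order began with Numb at 15.6 ± 1.33 and Hey1 at 14.1 ± 2.82 CPM per kilobase (n = 6), whose ranges overlap, and ended with Jag1 at 0.969. In the other 4 groups Hey1 was highest, at 16.7 to 19.1 CPM per kilobase.

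**Figure D1:**
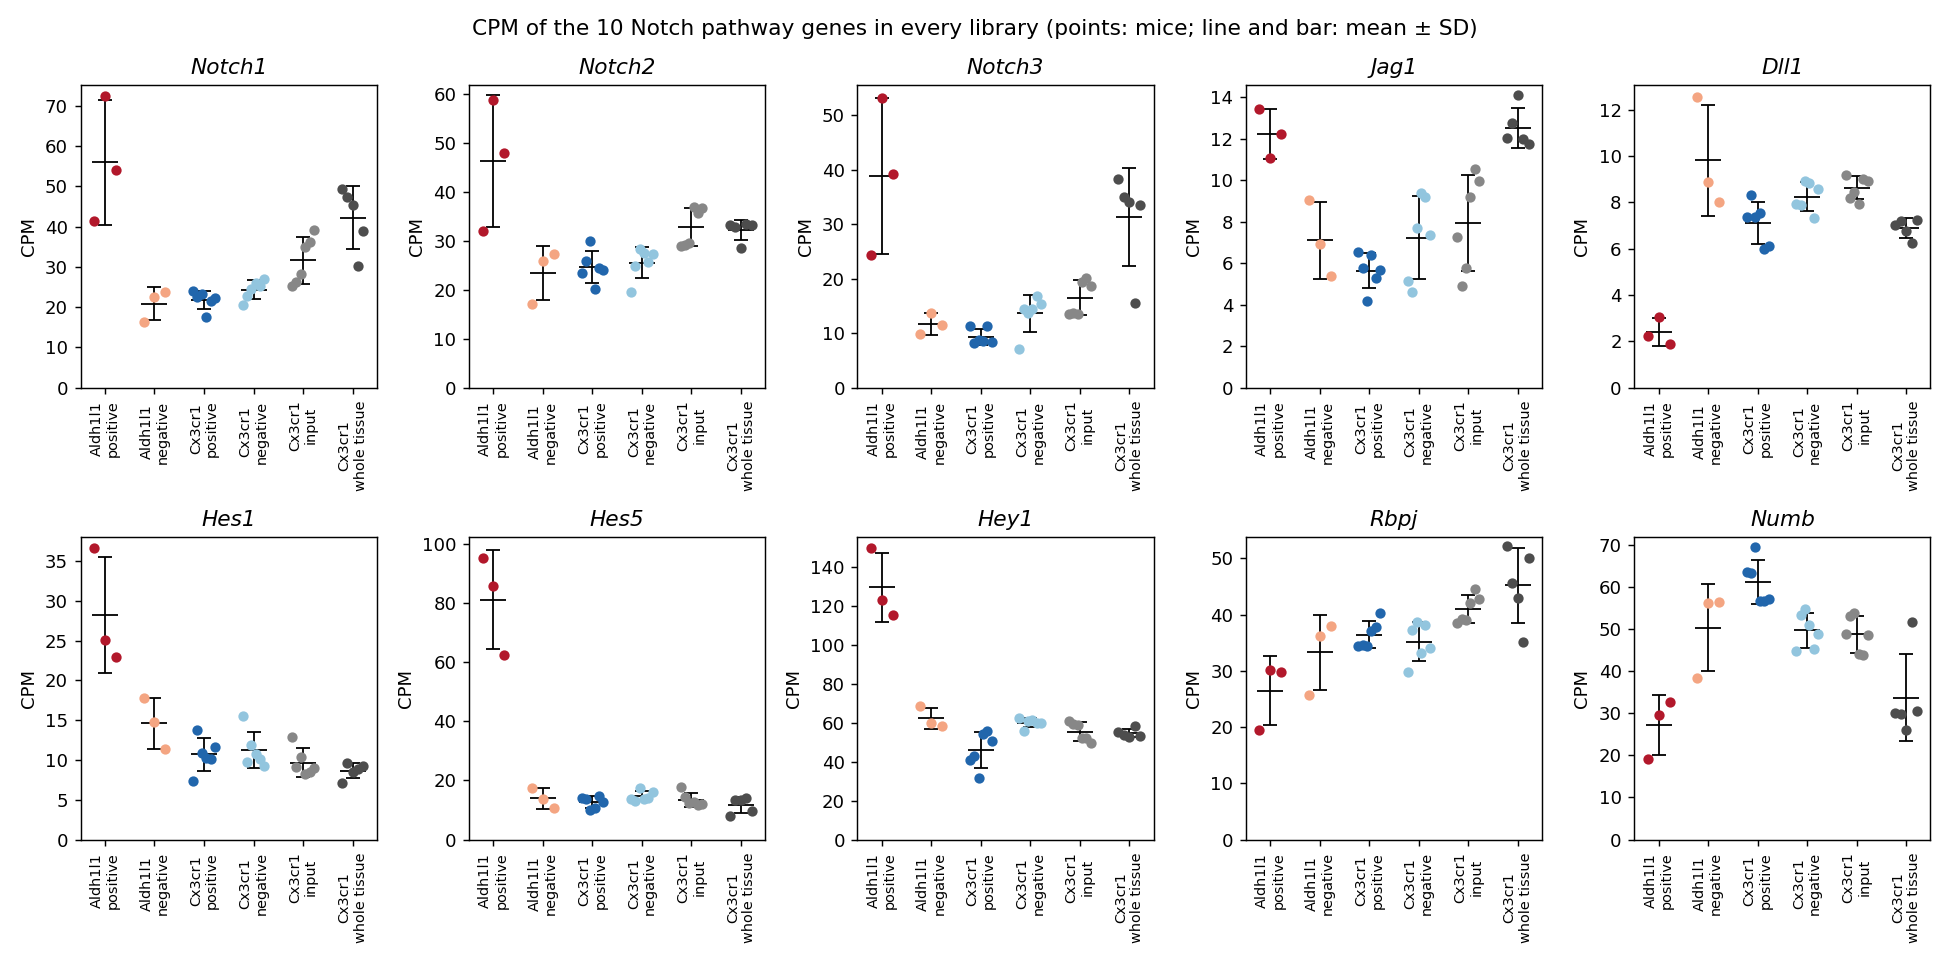
CPM of each of the 10 genes (y axis, linear, a panel per gene) in the 29 libraries by group (x axis), with points for mice and a line with a bar for the mean ± SD. Hes1, Hes5 and Hey1 stood above every other group in the Aldh1l1 positive fraction, Dll1 stood below every other group there, and Numb stood highest in the Cx3cr1 positive fraction.

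Within each family the makeup differed between fractions. Jag1 made up 78.7 ± 5.56% of the summed ligand level (CPM per kilobase of Jag1 and Dll1) in the Aldh1l1 positive fraction and 34.4 ± 1.69% in the negative fraction. In the Cx3cr1-NuTRAP groups Jag1 made up 36.5 ± 4.32% in the positive fraction, 39.3 ± 6.96% in input and 56.8 ± 2.43% in whole tissue. Among the targets, Hes5 made up 52.5 ± 3.08% in the Aldh1l1 positive fraction, 27.8 ± 2.69% in the negative and 32.5 ± 4.17% in the Cx3cr1 positive fraction. Among the receptors, Notch1 kept a share between 28.9% and 30.8% in all 6 groups. The share of Notch3 was 36.5 ± 2.29% in the Aldh1l1 positive fraction, 23.4 ± 3.37% in the Cx3cr1 positive fraction and 38.6 ± 6.59% in whole tissue. These shares are a description and were not tested.

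**Figure D2:**
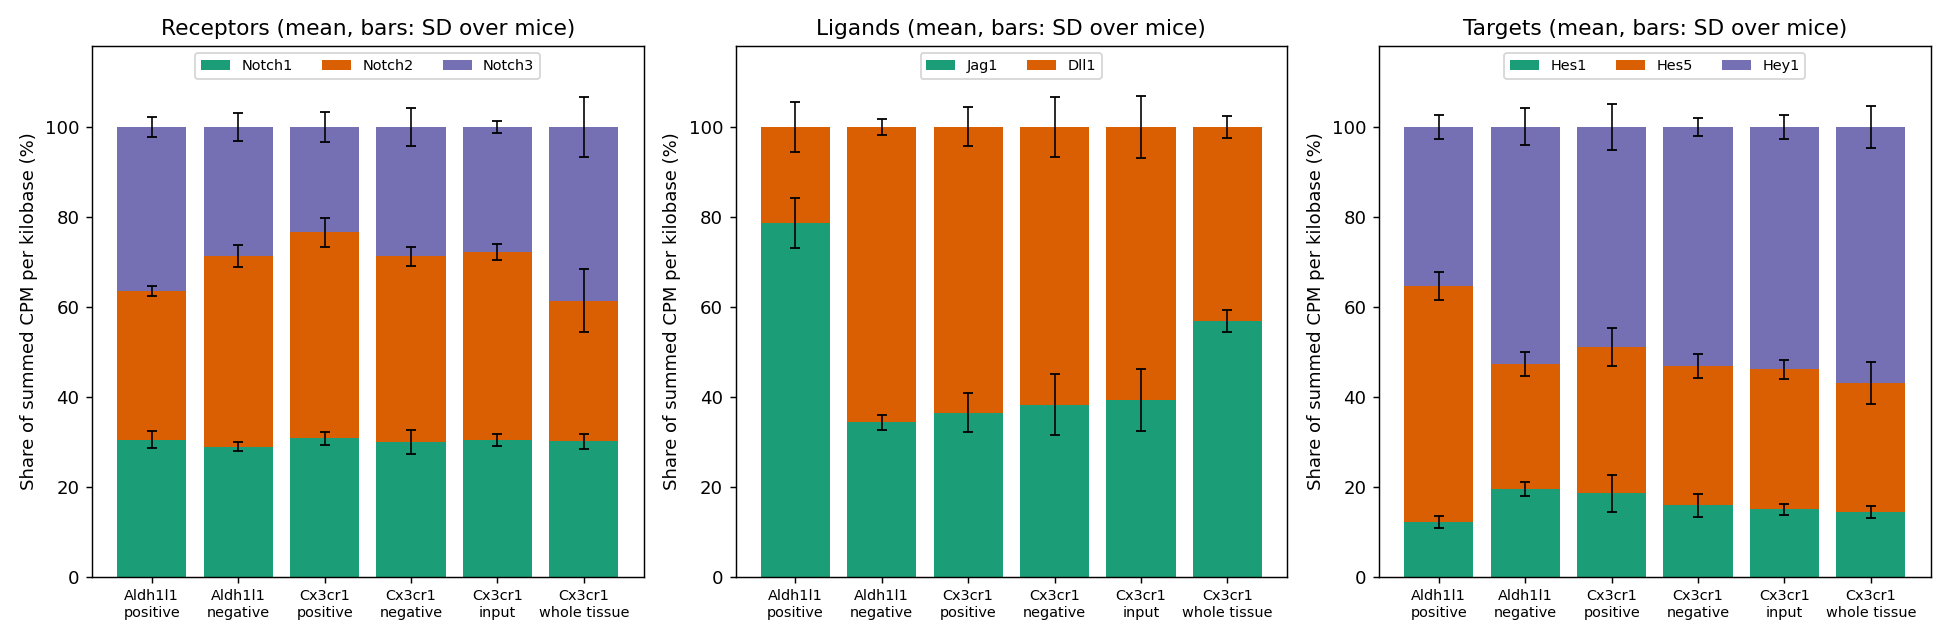
Share of each gene in the summed CPM per kilobase of its family (y axis, %), as stacked bars by group (x axis), with bars for the SD over mice. Jag1 fills most of the ligand bar in the Aldh1l1 positive fraction (78.7%) and in whole tissue (56.8%), and Dll1 fills most of it in the other 4 groups.

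The first comparison asked which RNA was bound to tagged ribosomes of astrocytes, positive against negative fraction of the Aldh1l1-NuTRAP mice. Receptor, ligand Jag1 and target RNA rose together in the positive fraction. Of the 10 genes 7 were higher, against 26.8% of the 13319 genes tested, 1 was lower, against 24.8%, and 2 did not pass. The median log2 fold change of the 10 was 1.31, against 0.04 over all genes tested. CPM did not overlap between the fractions for 7 genes with higher and 2 with lower values in the positive fraction, against 21.3% and 41.7% of all genes. Without scaling factors the median of all genes moved by -0.35 on the log2 scale, and the split of all calls went from 3569 higher and 3299 lower to 2436 higher and 4824 lower, with 7 of the 10 still higher.

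All 3 receptors rose. Notch1, the receptor with the widest known role in neural stem cells, was at 41.5, 72.4 and 54.1 CPM in the positive fraction of mice 290, 293 and 294 and at 16.3, 22.6 and 23.9 CPM in their negative fraction. Each positive library was above each negative library, and the log2 fold change was 1.76 (SE 0.24, adjusted p = 0.000924), 3.4-fold. Notch2 was at 32.0, 58.7 and 47.9 CPM against 17.0, 25.8 and 27.2 CPM. Its groups did not overlap and its log2 fold change was 1.33 (SE 0.26, adjusted p = 0.00479), which was lost without mouse 293 (adjusted p = 0.0525). Notch3, the receptor known from vascular smooth muscle and pericytes, was at 24.4, 53.2 and 39.2 CPM against 9.88, 13.7 and 11.5 CPM. Its groups did not overlap either, and it had the largest rise of the receptors, with a log2 fold change of 2.07 (SE 0.29, adjusted p = 0.00102), 4.21-fold. In all 3 receptors mouse 290 had the lowest CPM of both fractions, and within mice the log2 ratio of Notch1 ran from 1.58 to 2.09.

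The ligands went in opposite directions. Jag1, a Jagged family ligand, was at 13.4, 11.0 and 12.2 CPM in the positive fraction and at 9.07, 6.90 and 5.38 CPM in the negative. Every positive library was above every negative one, with a log2 fold change of 1.13 (SE 0.25, adjusted p = 0.00764), 2.19-fold, and the call was lost without mouse 293 (adjusted p = 0.0682) and without mouse 294 (adjusted p = 0.0824). Dll1, a Delta-like ligand, was at 2.22, 3.06 and 1.88 CPM in the positive fraction and at 12.5, 8.87 and 8.03 CPM in the negative. Dll1 was lower in 3 of 3 mice without overlap, and it fell by 1.69 on the log2 scale (SE 0.31, adjusted p = 0.00313), 3.23-fold. It was the only one of the 10 genes called lower.

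The targets Hes1, Hes5 and Hey1 all rose. Hes5, a repressor that is a direct Notch target in neural progenitors, was at 95.2, 85.7 and 62.5 CPM in the positive fraction and at 17.5, 13.7 and 10.6 CPM in the negative. The lowest positive library was far above the highest negative one, and the log2 fold change of 2.90 (SE 0.27, adjusted p = 0.000181), 7.45-fold, was the largest of the 10. Within mice its log2 ratio was 2.89 to 3.05. Hey1, of the related Hey family, was at 149.6, 123 and 115 CPM against 68.4, 60.1 and 58.4 CPM. The fractions did not overlap and Hey1 rose by 1.40 on the log2 scale (SE 0.18, adjusted p = 0.000605), 2.64-fold. Hes1 was at 36.6, 25.0 and 23.0 CPM against 17.7, 14.7 and 11.3 CPM, also without overlap, with a log2 fold change of 1.30 (SE 0.27, adjusted p = 0.00563). Mouse 290 had the highest CPM of all 3 targets in both fractions, the reverse of its place for the receptors.

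The nuclear mediator and the adaptor did not pass the test. Rbpj, the DNA-binding partner of the cleaved receptor, was at 19.4, 30.2 and 29.7 CPM in the positive fraction and at 25.7, 36.2 and 37.9 CPM in the negative. The groups overlapped and the log2 fold change was 0.02 (SE 0.23, adjusted p = 0.96). Numb was at 19.1, 29.6 and 32.7 CPM against 38.4, 56.2 and 56.4 CPM. The CPM of the fractions did not overlap and Numb was lower in 3 of 3 mice, at a log2 fold change of -0.55 (SE 0.24, adjusted p = 0.0905), which did not pass. With the mouse as a block Numb passed at -0.56 (adjusted p = 0.00137), and 9 of the 10 genes and 9430 of all genes were then called. Numb also passed without scaling factors (-0.89, adjusted p = 0.0197), with all 6 groups in 1 fit (-0.58, adjusted p = 0.00707) and without mouse 290 (-0.54, adjusted p = 0.00118).

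Markers of other cells moved with this comparison. All 9 neuron markers fell (summed CPM of 1717 to 2267 in the positive and 7513 to 8683 in the negative fraction), as did 9 of 10 oligodendrocyte markers (1189.7 to 1387 against 6336 to 7635), 4 of 5 oligodendrocyte precursor markers (33.7 to 41.1 against 102 to 149) and 12 of 12 microglial markers (70.8 to 154 against 405 to 629.9). In the same fraction 1 of the 10 Notch genes, Dll1, was called lower and 7 were called higher. Of 39 pathway genes described further on, 7 were called lower and 14 higher. The 7 choroid plexus markers all rose, with summed CPM of 2937.5 to 3383 in the positive and 492 to 639 in the negative fraction, and 4 of 5 ependymal markers tested rose (56.7 to 75.7 against 24.6 to 39.4). Of 8 pericyte and smooth muscle markers tested of 10 listed, 2 rose, 3 fell and 3 did not pass (median log2 fold change -0.62). The 10 listed summed to 98.3 to 115 CPM against 119 to 145, with Acta2 listed at 0 in every library. The 10 endothelial markers gave 0 calls by edgeR and 0 at an unadjusted p under 0.05 (82.2 to 119 against 108 to 175). Of 7 neural progenitor markers tested of 8, 2 rose and 1 fell (79.0 to 99.9 against 115 to 136). Their part in the values of the Notch genes was not tested.

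**Figure D3:**
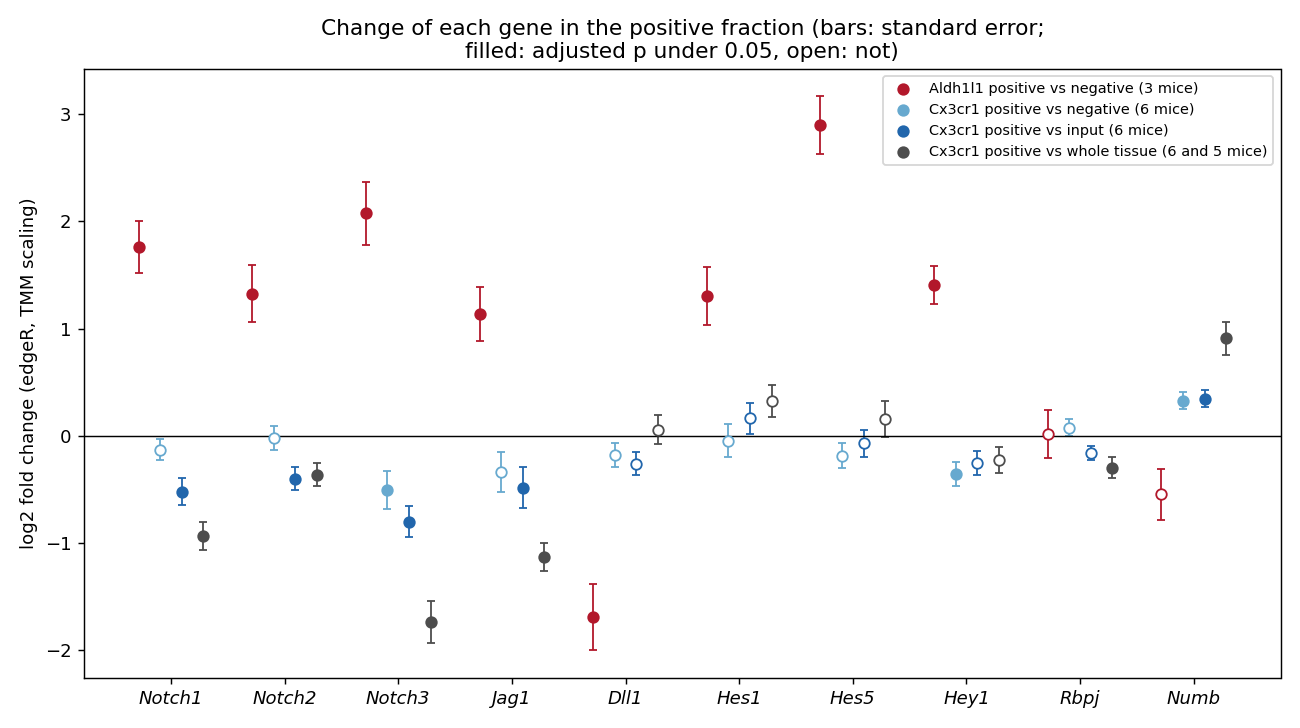
Log2 fold change of each gene (y axis, edgeR with TMM scaling, bars for the standard error) by gene (x axis) for the positive fraction against its controls in both lines, filled where the adjusted p was under 0.05. Hes5 reached 2.90 and Dll1 -1.69 in the Aldh1l1 line, and the Cx3cr1 values lay between -1.73 and 0.91.

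In the Cx3cr1-NuTRAP mice the positive fraction was compared with input, negative fraction and whole tissue. These 3 comparisons share the positive libraries and their values are given side by side. Numb was higher in the microglial fraction in all 3, and Notch3 was lower in all 3. Against input 1 of the 10 genes was higher and 4 were lower, against 23.3% and 25.6% of 13838 genes. Against the negative fraction 1 was higher and 2 were lower, against 12.8% and 11.6% of 13776 genes. Against whole tissue 1 was higher and 5 were lower, against 27.5% and 24.3% of 13470 genes. CPM did not overlap for 1 higher and 2 lower genes against input, where 10% and 15.3% of all genes had such values. Against whole tissue it did not overlap for 1 higher and 3 lower genes, where 12.7% and 15.8% had.

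Numb was at a lowest, median and highest of 56.5, 60.2 and 69.4 CPM in the positive fraction, 43.8, 48.8 and 53.8 CPM in input and 44.9, 49.9 and 54.6 CPM in the negative fraction. The positive libraries were above all input and all negative libraries. In whole tissue Numb was at 30.1, 29.7, 26.0, 51.8 and 30.6 CPM in mice 192, 194, 209, 210 and 277, with mouse 210 apart from the other 4. The log2 fold change of the positive fraction was 0.34 against input (SE 0.08, adjusted p = 0.00281), 0.33 against the negative fraction (SE 0.08, adjusted p = 0.0103) and 0.91 against whole tissue (SE 0.16, adjusted p = 0.00039). Numb was higher in 6 of 6 mice against input and negative fraction and in 5 of 5 against whole tissue. Without mouse 210 the value against whole tissue was 1.10.

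Notch1, Notch2 and Notch3 were called lower in the microglial fraction against input and whole tissue, and against the negative fraction Notch3 alone was. Notch3 was at 8.14, 8.68 and 11.3 CPM (lowest, median, highest) in the positive fraction, 13.6, 16.2 and 20.1 CPM in input and 7.03, 14.4 and 16.9 CPM in the negative fraction. The positive libraries lay below all input libraries and overlapped with the negative ones, where mouse 155 alone was at 7.03 CPM. In whole tissue Notch3 was at 38.4, 35.0, 34.2, 15.5 and 33.6 CPM in the same order of mice, so that mouse 210 was again apart. Notch3 fell by 0.80 on the log2 scale against input (SE 0.14, adjusted p = 0.000429) and by 1.73 against whole tissue (SE 0.20, adjusted p = 1.6e-05). Without mouse 210 the fall against whole tissue was -1.96. Against the negative fraction the value was -0.51 (SE 0.18, adjusted p = 0.0482), a call that was lost in 10 of 13 alternatives, the mouse block among them (-0.48, adjusted p = 0.128).

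Notch1 was at 17.6, 22.5 and 23.9 CPM in the positive fraction, 20.6, 24.9 and 26.9 CPM in the negative and 25.2, 31.6 and 39.1 CPM in input. Whole tissue had 49.3, 47.3, 45.3, 30.2 and 38.8 CPM, above every positive library. Notch1 fell by 0.52 on the log2 scale against input (SE 0.12, adjusted p = 0.00327) and by 0.94 against whole tissue (SE 0.13, adjusted p = 8.36e-05), and its value against the negative fraction was -0.13 (adjusted p = 0.35). Notch2 was at 20.1, 24.1 and 29.9 CPM in the positive fraction and 28.97, 32.6 and 36.8 CPM in input, with a small overlap through mouse 194. It fell by 0.40 on the log2 scale against input (SE 0.11, adjusted p = 0.00701) and by 0.36 against whole tissue (SE 0.11, adjusted p = 0.0135), the latter lost without mouse 192 (adjusted p = 0.0563) and without mouse 277 (adjusted p = 0.0577). Against the negative fraction Notch2 was at -0.02 (adjusted p = 0.911).

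Jag1 was at 4.17, 5.72 and 6.55 CPM in the positive fraction and 4.91, 8.24 and 10.6 CPM in input. The groups overlapped, and its log2 fold change of -0.49 (SE 0.19, adjusted p = 0.0487) was lost in 8 of 13 alternatives, the mouse block (-0.45, adjusted p = 0.0657) and each fit without mouse 194, 209, 210 or 277 (adjusted p = 0.0642, 0.0977, 0.176 and 0.153) among them. In whole tissue Jag1 was at 12.0, 12.7, 14.1, 12.0 and 11.8 CPM, above every Cx3cr1 positive library. Without TMM scaling this was about the level of the Aldh1l1 positive fraction. In the Cx3cr1 positive fraction Jag1 fell by 1.13 on the log2 scale against whole tissue (SE 0.13, adjusted p = 2.17e-05). It was at -0.34 against the negative fraction (adjusted p = 0.205). Dll1 was at 6.00 to 8.33 CPM in the positive fraction and 6.23 to 9.21 CPM over the other 3 groups of this line, and passed in none of the 3 comparisons (adjusted p = 0.059, 0.272 and 0.742 against input, negative fraction and whole tissue), but passed against input without scaling factors (-0.28, adjusted p = 0.0437).

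Of the targets Hey1 was called against the negative fraction, and the others passed in none of the 3 comparisons. Hey1 was at 31.8, 46.8 and 55.8 CPM in the positive fraction and 55.9, 60.5 and 62.5 CPM in the negative. The groups just did not overlap (7.26% of all genes had higher and 5.85% lower values of this kind), and the log2 fold change of -0.36 (SE 0.11, adjusted p = 0.0295) was lost without mouse 155, 192, 194 or 277 (adjusted p = 0.0664, 0.102, 0.0629 and 0.0601). Against input Hey1 was at -0.25 (adjusted p = 0.0765) and against whole tissue at -0.23 (adjusted p = 0.125), and it passed against input without mouse 210 (-0.32, adjusted p = 0.0472) and against whole tissue with all 6 groups in 1 fit (-0.25, adjusted p = 0.0404). Hes5 was at 9.92, 13.2 and 14.8 CPM in the positive fraction and 11.6, 12.5 and 17.7 CPM in input, a log2 fold change of -0.07 (adjusted p = 0.659). Hes1 was at 7.36, 10.6 and 13.8 CPM against 8.19, 9.07 and 12.9 CPM, at 0.16 (adjusted p = 0.38). Both overlapped with input. Without mouse 155 Hes1 passed against input (0.34, adjusted p = 0.0313) and against whole tissue (0.41, adjusted p = 0.0239).

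Rbpj was at 34.4, 35.8 and 40.3 CPM in the positive fraction and 38.5, 40.6 and 44.6 CPM in input, at -0.16 (adjusted p = 0.0564), which passed without scaling factors (-0.17, adjusted p = 0.0443). Whole tissue had 52.2, 45.5, 42.9, 35.2 and 50.1 CPM, the value of mouse 210 lying within the positive range. Rbpj fell by 0.30 on the log2 scale against whole tissue (SE 0.10, adjusted p = 0.022), which was lost with the mouse block (-0.28, adjusted p = 0.0804), without mouse 192 (adjusted p = 0.134), without mouse 194 (adjusted p = 0.065) and without mouse 277 (adjusted p = 0.0647), and kept without mouse 210 (-0.40, adjusted p = 0.00279).

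Without both libraries of mouse 194 the count against input was 1 higher and 3 lower, that against the negative fraction 1 higher and 0 lower, and that against whole tissue 1 higher and 4 lower. Without both libraries of mouse 210 the count against whole tissue was 1 higher and 5 lower. Of the astrocyte markers 7 of 11 fell in the positive fraction against input, as did 9 of 10 oligodendrocyte markers (1387 to 3698 CPM against 4799 to 5524), 4 of 5 oligodendrocyte precursor markers (60.7 to 95.7 against 120.04 to 144), 4 of 7 choroid plexus markers (224.6 to 1043 against 840 to 1013) and 4 of 9 pericyte and smooth muscle markers tested, of which 1 rose (77.1 to 136 CPM against 133 to 147). Of the 10 endothelial markers 5 rose (117 to 239 CPM against 123 to 143). Against whole tissue, where Notch3, Jag1 and Notch1 fell most, 8 of 10 endothelial markers fell (117 to 239 CPM against 197 to 366), as did 5 of 8 pericyte and smooth muscle markers tested (77.1 to 136 against 155 to 216, Acta2 at 0), 10 of 10 oligodendrocyte markers (1387 to 3698 against 6649 to 9027), 9 of 11 astrocyte and 4 of 5 oligodendrocyte precursor markers, while of 9 neuron markers 3 rose and 1 fell. Against the negative fraction 8 of 11 astrocyte, 9 of 10 oligodendrocyte, 3 of 5 oligodendrocyte precursor and 4 of 7 choroid plexus markers fell. Of 9 pericyte and smooth muscle markers tested there 2 fell and 1 rose (77.1 to 136 CPM against 125 to 151), and 3 of 10 endothelial markers rose (117 to 239 against 125 to 149.98). The part of these cells in the values of the Notch genes was not tested.

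The RNA left unbound was compared with input, and input with whole tissue, as controls. In the negative fraction against input 1 of the 10 genes was called, Notch2 at -0.36 (SE 0.09, adjusted p = 0.0423), against 1.41% of 13748 genes higher and 4.7% lower. Notch2 was at 19.5, 26.5 and 28.2 CPM in the negative fraction and 28.97, 32.6 and 36.8 CPM in input, without overlap (1.07% of all genes stood higher and 2.71% lower without overlap), and the call was lost in 7 of 13 alternatives. With the mouse as a block 5 of the 10 genes were called, Notch1 at -0.36 (adjusted p = 0.000718), Rbpj at -0.22 (adjusted p = 0.00816), Notch3 at -0.28 (adjusted p = 0.0373) and Hes1 at 0.22 (adjusted p = 0.0421) besides Notch2, and 5115 of all genes in place of 840. Notch1 and Rbpj also passed by DESeq2 (adjusted p = 0.0174 and 0.0257) and without mouse 155 (adjusted p = 0.00453 and 0.0175).

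Input and whole tissue of the Cx3cr1-NuTRAP mice differed in 5 of the 10 genes, 2 higher and 3 lower in input, against 16.3% and 14.2% of 13608 genes. Notch3 was lower in input (-0.97, SE 0.18, adjusted p = 0.00154), as were Jag1 (-0.66, SE 0.17, adjusted p = 0.011) and Notch1 (-0.44, SE 0.14, adjusted p = 0.0254). Numb was higher (0.58, SE 0.14, adjusted p = 0.00588), as was Dll1 (0.30, SE 0.10, adjusted p = 0.0275). CPM did not overlap for 1 higher and 1 lower gene, against 8.34% and 5.61% of all genes. With the mouse as a block Notch1 (adjusted p = 0.131) and Dll1 (adjusted p = 0.115) were lost. Without mouse 210 the values were -1.16 for Notch3, 0.76 for Numb and 0.27 for Dll1, the last no longer called (adjusted p = 0.0526), and Rbpj passed (-0.25, adjusted p = 0.0164), so that 4 genes were lower. Dll1 was lost in 8 of 13 alternatives and Notch1 in 5 of 13, among them without mouse 192 (adjusted p = 0.108), 194 (0.124) and 209 (0.0685). Numb was lost without mouse 192 (adjusted p = 0.0505) and Jag1 without mouse 194 (adjusted p = 0.0523). All 10 endothelial markers were lower in input than in whole tissue (summed CPM of 123 to 143 against 197 to 366), as were 7 of 9 pericyte and smooth muscle markers tested (133 to 147 against 155 to 216), with the lowest whole tissue value in mouse 210. Of the oligodendrocyte markers 9 of 10 were lower in input (4799 to 5524 CPM against 6649 to 9027), as were 3 of 5 oligodendrocyte precursor markers (120.04 to 144 against 124 to 198), 5 of 11 astrocyte markers (4933 to 5315 against 5441 to 6032) and 2 of 4 ependymal markers tested. Of 9 neuron markers 4 were higher and 2 lower in input (8039 to 8377 CPM against 6777 to 8027), and of 7 choroid plexus markers 2 were higher (840 to 1013 against 208 to 996). Their part in the values of the 5 called genes was not tested.

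The positive fractions of the lines were compared to ask how Notch RNA differs between the pulldowns. Of the 10 genes 7 were higher in the Aldh1l1 positive fraction, against 30.6% of 13676 genes, and 2 were lower, against 33.1%, with a median log2 fold change of 1.55 against -0.08 over all genes. Hes5 was 7.98-fold higher (log2 fold change 3.00, SE 0.17, adjusted p = 1.24e-07), Notch3 5.12-fold (2.36, SE 0.21, adjusted p = 3.84e-06) and Hey1 3.51-fold (1.81, SE 0.16, adjusted p = 3.49e-06). Hes1 (1.71), Notch1 (1.66), Jag1 (1.43) and Notch2 (1.22) followed. Dll1 was 2.42-fold lower (-1.27, SE 0.23, adjusted p = 0.000599) and Numb 1.82-fold lower (-0.86, SE 0.17, adjusted p = 0.00106). The CPM of the groups did not overlap for any of the 10 genes, 7 higher and 3 lower, against 18.4% and 42% of all genes. Rbpj was the third lower gene by CPM, at a log2 fold change of -0.15 (SE 0.14, adjusted p = 0.378), and passed only without scaling factors (-0.46, adjusted p = 0.0207), where the median of all genes moved by -0.31 and the split of all calls went from 4188 higher and 4530 lower to 2875 and 6312. The 9 calls were kept in all 134 refits, counted over genes and alternatives. Markers of other cells differed as well, 7 of 7 choroid plexus markers (2937.5 to 3383 CPM against 224.6 to 1043) and 4 of 5 ependymal markers (56.7 to 75.7 against 18.4 to 35.1) being higher and 9 of 9 neuron markers (1717 to 2267 against 5749.7 to 8811) and 9 of 10 oligodendrocyte markers (1189.7 to 1387 against 1387 to 3698, with 1 higher), 4 of 5 oligodendrocyte precursor and 3 of 10 endothelial markers lower in the Aldh1l1 positive fraction, and their part was not tested. Line, mice, any difference in time from tamoxifen to collection and any batch cannot be told apart in this comparison.

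The negative fractions of the lines served as its control. None of the 10 genes was called by edgeR, 0 had an unadjusted p under 0.05, the lowest being 0.0687 for Hes1, and 0 were called by DESeq2. Of all 13613 genes tested 0.125% were higher and 0.125% lower by edgeR, 34 genes in all, against 517 by DESeq2. The CPM of the lines overlapped for all 10 genes, while 2.57% and 5.16% of all genes did not overlap in either direction.

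Whether the change from negative to positive fraction differed between the lines was asked by an interaction term, fitted to 13983 genes. The term was above 0 for 7 of the 10 genes, against 25.5% of all genes, and below 0 for 2, against 29.9%. Hes5 rose more in the Aldh1l1 line by 3.04 on the log2 scale (SE 0.25, adjusted p = 1.33e-08), Notch3 by 2.53 (SE 0.34, adjusted p = 4.51e-06), Notch1 by 1.85 (SE 0.22, adjusted p = 1.33e-06) and Hey1 by 1.72 (SE 0.19, adjusted p = 5.75e-07). Jag1 differed by 1.43 (adjusted p = 0.000931), Hes1 by 1.31 (adjusted p = 0.00119) and Notch2 by 1.30 (adjusted p = 0.000251). The difference was -1.55 for Dll1 (SE 0.26, adjusted p = 6.62e-05) and -0.92 for Numb (SE 0.21, adjusted p = 0.00112). Numb was called higher in the Cx3cr1 positive fraction. In the Aldh1l1 line Numb did not pass in the main fit and was called lower with the mouse as a block (-0.56, adjusted p = 0.00137). Rbpj did not pass (-0.10, SE 0.19, adjusted p = 0.654). The 9 calls were kept in all 144 refits, counted over genes and alternatives, the mouse block among them, and without scaling factors the median of all genes moved by -0.28 and the split of all calls from 3572 higher and 4179 lower to 2600 and 5719. Markers of other cells moved with the term, which was called above 0 for 7 of 7 choroid plexus (median 3.10) and 4 of 6 ependymal markers, and below 0 for 9 of 9 neuron (median -1.54), 9 of 10 oligodendrocyte (with 1 above 0), 4 of 5 oligodendrocyte precursor and 4 of 10 endothelial markers. Of 9 pericyte and smooth muscle markers tested 1 was called above and 1 below 0. Their part in the differences of the Notch genes was not tested. Any difference in time from tamoxifen to collection cannot be told apart from line here either.

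Over the 6 groups the order of each gene's CPM, without TMM scaling, was as follows. Under TMM scaling 9 of the 10 means of the Aldh1l1 positive fraction moved beyond the spread of replicates. The place of that fraction, and its overlap with whole tissue for Jag1 and the receptors, may therefore depend on the scaling. Hes1, Hes5 and Hey1 were highest in the Aldh1l1 positive fraction, separated from the next group without overlap, and the ranges of all later neighbours overlapped. Notch1 and Notch3 had the order Aldh1l1 positive, whole tissue, input and then the other fractions, with overlap between all neighbours. Notch2 separated only between whole tissue and the Cx3cr1 negative fraction. Jag1 was highest in whole tissue and next in the Aldh1l1 positive fraction, which overlapped, and both stood above input. Dll1 was lowest in the Aldh1l1 positive fraction, below whole tissue without overlap. Numb was highest in the Cx3cr1 positive fraction, above the Aldh1l1 negative fraction without overlap, and Rbpj was highest in whole tissue with overlap between all neighbours.

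The wider pathway was read from a list of 45 further genes. Of the 39 tested in the Aldh1l1 positive against negative fraction 14 were higher and 7 lower, with a median log2 fold change of 0.30, where 26.8% of all genes were higher and 24.8% lower. Of the 40 tested in the Cx3cr1 positive fraction against input 16 were higher and 10 lower, with a median of 0.06, where 23.3% and 25.6% of all genes were. Against the negative fraction of that line 10 were higher and 4 lower of 41 (12.8% and 11.6% of all genes), and against whole tissue 16 and 10 of 40 (27.5% and 24.3%). Between the positive fractions of the lines it was 13 and 13 of 40, near the 30.6% and 33.1% of all genes. The sublists hold few genes each, and a share near these is no result about a sublist.

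Target genes and modifiers of the receptor held the largest rises in the Aldh1l1 line. Nrarp, a Notch target that feeds back on the receptor complex, was at 253 ± 38.2 CPM in the positive and 26.6 ± 5.24 in the negative fraction (SD, n = 3), a log2 fold change of 3.60 (adjusted p = 5.44e-05). Lfng, a glycosyltransferase that adds sugar to the receptor, was at 227 ± 6.33 against 30.1 ± 3.38 CPM (log2 fold change 3.26, adjusted p = 3.37e-05). Heyl rose by 2.96 (adjusted p = 0.000257) and Hey2 by 2.00 (adjusted p = 0.000218), so that 3 of 5 further Hes, Hey and target genes tested were higher. The windows of Lfng and Hey2 were printed because they hold the RBPJ letters. Of the 43 windows of the pathway list 7 have them, these included, against 6.4% of all promoters. Hey2 has a further match at -4, outside the window shown. Among the others, Psen2 (0.24, adjusted p = 0.389) and Spen (0.30, adjusted p = 0.42) did not pass, and Aph1a, Rbpjl and Hes7 were not tested here. The window of Nrarp has no match. In receptor glycosylation 2 of 5 were higher, with Pofut1, which adds fucose, at 0.74 (adjusted p = 0.0263), and Mfng did not pass at -0.74 (adjusted p = 0.0895). The receptor Notch4, best known from endothelium, rose by 1.71 (16.1 ± 4.39 against 6.30 ± 2.18 CPM, adjusted p = 0.00504).

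Of 4 further ligands tested 3 were lower, Dlk2 (-1.49, adjusted p = 0.00079), Jag2 (-1.24, adjusted p = 0.00302) and Dlk1 (-1.18, adjusted p = 0.00901), and Dner did not pass (-0.07, adjusted p = 0.729). Of 4 genes of ligand endocytosis 2 were lower, Neurl1b (-1.72, adjusted p = 0.000132) and Neurl1a (-1.68, adjusted p = 0.000653), and Mib1 (0.66, adjusted p = 0.29) and Mib2 (-0.02, adjusted p = 0.947) did not pass. In the cleavage group 3 of 8 were higher, against 26.8% of all genes, Psenen of gamma-secretase at 1.58 (adjusted p = 0.00208), the protease Adam17 at 0.89 (adjusted p = 0.00232) and Aph1b at 0.67 (adjusted p = 0.0314). Among nuclear cofactors 2 of 5 were higher, Maml2 at 1.86 (adjusted p = 0.00106) and Snw1 at 0.60 (adjusted p = 0.0132), and Maml1 did not pass (0.31, adjusted p = 0.269). Receptor turnover was split, 3 of 7 higher and 2 lower. The ubiquitin ligase Dtx1 rose by 1.68 (adjusted p = 0.00031), while Numbl, the relative of Numb, fell by 1.06 on the log2 scale (adjusted p = 0.00578) and Fbxw7, which marks the cleaved receptor for breakdown, by 1.00 (adjusted p = 0.0017).

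In the microglial fraction Mfng, another sugar transferase of the receptor, was at 17.8 ± 5.89 CPM in the Cx3cr1 positive fraction and 2.66 ± 0.446 in input (n = 6), a log2 fold change of 2.75 (adjusted p = 3.1e-07), higher in 6 of 6 mice. Mib1 fell by 1.40 on the log2 scale (adjusted p = 1.03e-05) with 6 of 6 mice lower. Notch4 rose by 0.98 against input (adjusted p = 0.000179) and by 0.83 against the negative fraction (adjusted p = 0.000277), but was at -0.09 against whole tissue (adjusted p = 0.64), and input was 1.09 lower than whole tissue (log2 fold change -1.09, adjusted p = 0.000298). Of the 10 endothelial markers 5 rose against input and 8 fell against whole tissue, and their part was not tested. Of the 39 pathway genes tested in both lines 14 were called in both, 9 in the same and 5 in opposite directions. Of all 13120 genes tested in both 25.8% were called in both, 16.6% in the same and 9.21% in opposite directions, and nothing is read from the smaller counts of the list. Psenen (0.54 in the Cx3cr1 line), Adam17 (0.73), Notch4, Maml2, Snw1, Dtx2 and Dtx4 were higher in both, and Neurl1a (-0.24) and Neurl1b (-0.29) were lower in both. The 5 with opposite directions were Nrarp (-0.30, adjusted p = 0.011), Hey2 (-0.57, adjusted p = 0.00341), Dtx1 (-0.18, adjusted p = 0.0272) and Aph1b (-0.51, adjusted p = 0.00651) lower and Dlk2 (0.70, adjusted p = 0.0181) higher in the Cx3cr1 positive fraction against input. The comparisons use different controls, negative fraction and input.

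**Figure D4:**
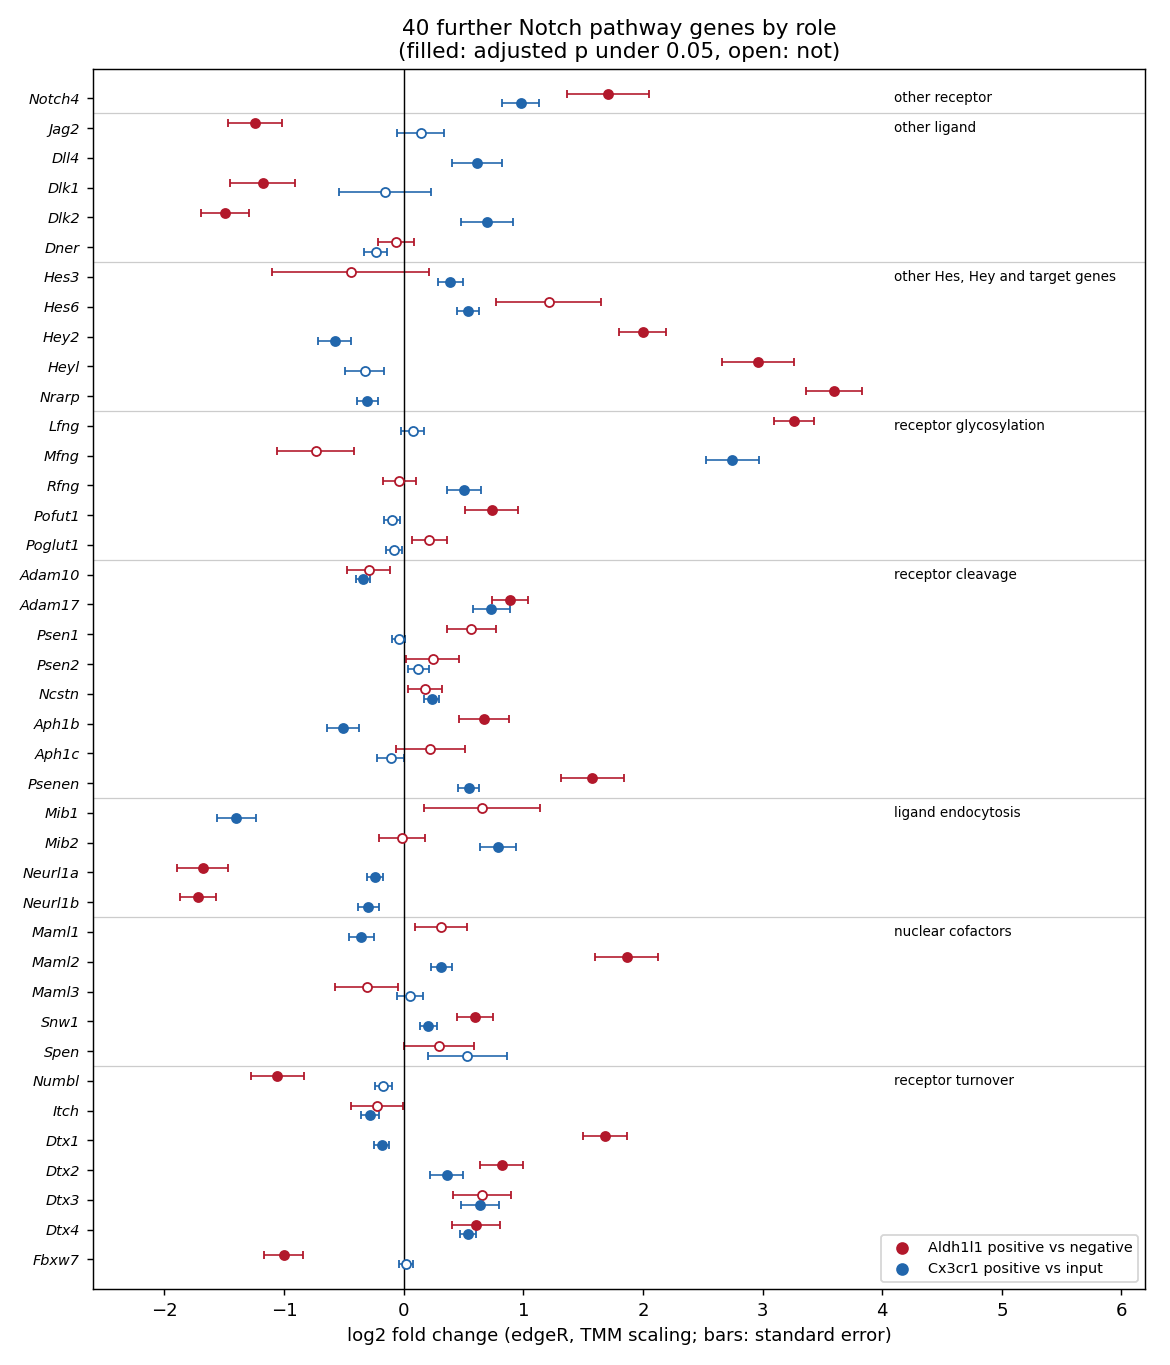
Log2 fold change (x axis, edgeR with TMM scaling, bars for the standard error) of 40 further Notch pathway genes by role (y axis) in the Aldh1l1 positive against negative and the Cx3cr1 positive against input fractions, filled where the adjusted p was under 0.05. Nrarp (3.60), Lfng (3.26) and Heyl (2.96) lead in the Aldh1l1 line and Mfng (2.75) in the Cx3cr1 line.

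The genes whose log2 CPM was most like that of each member over the 29 libraries were found among 14109 genes. The libraries share mice, lines and fractions, so Pearson's r is given as a description. For Hes5 the closest were Tubb2b (0.975), Rlbp1 (0.972) and Mfge8 (0.972), for Hey1 Shisa4 (0.980), Cpe (0.979) and Nudt19 (0.978), and for Hes1 Gadd45g (0.976), Hsbp1 (0.966) and 2610017I09Rik (0.963). For the receptors they were Fmnl2 (0.971), Plce1 (0.966) and Dock1 (0.965) with Notch1, Fgd6 (0.943), Lonrf3 (0.941) and Vcl (0.940) with Notch2, and Ppp2r3a (0.957), Dock1 (0.957) and Gpam (0.954) with Notch3. Dock1 was thus close to both Notch1 and Notch3. For Jag1 they were Fzd6 (0.892), Rab30 (0.848) and Gabrg1 (0.844), and for Dll1 Sema4f (0.925), Myt1l (0.921) and Coch (0.917). Rbpj had the lowest leading value, with Vps41 (0.881), Grlf1 (0.872) and Ncoa4 (0.855), and Numb was closest to Nab2 (0.935), Gm10336 (0.931) and Cplx3 (0.918). Between members r was 0.945 for Notch1 with Notch3, 0.937 for Hes5 with Hey1 and -0.803 for Jag1 with Numb.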

How the data were processed

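The authors trimmed the reads, aligned them in direction to mm10 with Strand NGS and assigned them to genes. The deposited table holds, per the file headers, raw values per gene and library, which are estimated counts without normalization, and log2 values that the authors made by DESeq normalization, which were not used. Among raw values above 0, 82.4% were not whole (tolerance 1e-06), so they were rounded to whole numbers for tests, and 0 columns of values had no sample. CPM is the raw value scaled to the library total (counts per 1000000), and CPM per kilobase divides by the merged exon length of GENCODE M21. Libraries of 9 mice were grouped by line and fraction from the labels, 29 in all, and none of the 61 pairs of replicates differed by as little as sampling noise (chi-square per gene 4.06 to 163). Intervals from counts alone were not needed, and the range of library totals is given with the results.

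A gene was tested if all libraries of a compared group held over 20 counts, with edgeR 4.0.16 under R 4.3.3 (TMM scaling, two-sided quasi-likelihood test), Benjamini-Hochberg adjustment over all genes tested and a threshold of 0.05. This filter follows the study, while its analysis of variance was replaced by the count model. Fits held only the groups compared, with no block. The alternatives were DESeq2 1.42.0, other scaling, other filters, all groups in 1 fit, the mouse as a block and leaving out each mouse. Libraries with the same number come from the same mouse. Residuals of the 2 libraries of a mouse had a correlation above 0.1 across genes in 3 of 3 Aldh1l1 pairs (0.438 to 0.642), 3 of 6 Cx3cr1 positive and input pairs, 3 of 6 positive and negative pairs, 5 of 6 negative and input pairs, and 0 of 5 pairs with whole tissue. Steps were checked on simulated data with known changes. The simulation had no pairing by mouse and as many rises as falls, and the check was on the median fold change alone. It therefore says nothing of the calls or of the scaling in these data.

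The members, the pathway list and the marker lists were chosen with earlier results of these data known. All 10 members were tested and counted in each comparison, and not every member is named with a value in each. Of each pathway sublist up to 3 genes are named, those with the largest absolute log2 fold change in the Aldh1l1 line, and any gene called in opposite directions in both lines, and Mfng, Mib1 and Notch4 are given again for the Cx3cr1 line. Dner, Mib2, Psen2, Spen, Dtx2 and Dtx4 fall outside this choice and were named after their values were seen. Aph1a, Rbpjl and Hes7 also fall outside it and are named for their promoter letters. Likeness used log2 CPM with TMM scaling and a prior count of 2. Tables were handled in Python 3.11.15 with pandas 2.3.3, numpy 2.4.6 and matplotlib 3.10.9, and limma 3.58.1 was loaded with edgeR. RNA fragments of the same library are amplified by PCR, so precision is set by the mice and not by counts.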

Additional observations from a re-analysis of the deposited data

Results flagged for a closer look

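In 40 tests for a sample far from the rest of its group 4 were flagged, where chance flags about 1 in 20. Notch3 was at 15.5 CPM and Numb at 51.8 CPM in the whole tissue of mouse 210, where the other 4 mice were at 33.6 to 38.4 and 26.0 to 30.6 CPM. Notch2 was at 28.6 CPM in the whole tissue of mouse 209, where the other 4 were at 32.9 to 33.4 CPM, and Notch3 at 7.03 CPM in the Cx3cr1 negative fraction of mouse 155. For 9 of the 10 genes the change from negative to positive fraction differed between the lines by the interaction test, on the log2 scale by 3.04 for Hes5, 2.53 for Notch3, 1.85 for Notch1, 1.72 for Hey1, 1.43 for Jag1, 1.31 for Hes1, 1.30 for Notch2, -0.92 for Numb and -1.55 for Dll1.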

How the results depend on the processing

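Of 46 calls on the 10 genes 34 were kept in every alternative run, and 53 of 617 values of called genes lost the threshold, while 20 values of genes not called passed it. No called value changed sign. With the mouse as a replicate block the calls changed as given beside Numb (-0.56), Jag1 (-0.45), Notch3 (-0.48), Rbpj (-0.28), Notch1 (-0.37) and Dll1 (0.29), and no other call changed except in the negative fraction against input, where 5 members and 5115 genes were called in place of 1 and 840. In that comparison DESeq2 called 3 members and 2056 genes, no filter 0 and 281, all groups in 1 fit 0 and 59, and fits without a mouse 0 to 3 members and 0 to 3815 genes. Input against whole tissue gave 5 members and 4144 genes, 3 members under no filter or the block, 2458 genes with all groups in 1 fit, and 2 to 5 members and 2549 to 5395 genes without a mouse. The negative fractions of the lines gave 34 genes, 517 by DESeq2, 14 without filter and 0 to 133 without a mouse. Leaving out a mouse gave 3587 to 9731 genes in place of 6868 in the Aldh1l1 line, and 1747 to 4273 genes and 1 to 2 members in place of 3352 and 3 in the Cx3cr1 positive against negative fraction. The cause was not tested.

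The values that changed sign were of genes not called. Rbpj in the Aldh1l1 line was -0.018 with size factors and with DESeq2, -0.33 without scaling factors (where the median of all genes moved by -0.35), -0.081 with at least 100 counts, -0.024 with all groups and -0.044 to 0.027 without a mouse. Notch2 in the Cx3cr1 positive against negative fraction was 0.0061 with at least 100 counts, 0.0036 with all groups and -0.078 to 0.054 without a mouse, and Hes1 -0.15 to 0.16. In input against whole tissue Hey1 was -0.0054 with the block, -0.014 with all groups and -0.018 to 0.052 without a mouse, and Notch2 -0.0067 with all groups and -0.067 to 0.064. Between positive fractions Rbpj ran from -0.26 to 0.0098 without a mouse. Between negative fractions Jag1 was 9.57e-05 with size factors, 0.0078 with DESeq2, 0.020 with all groups and -0.23 to 0.17 without a mouse, Hey1 -0.014 to 0.14, Notch2 -0.20 to 0.062, Hes5 -0.26 to 0.12, Rbpj -0.14 to 0.082 and Numb -0.023 to 0.19. No block was possible between the lines, whose mice differ. With at least 100 counts Jag1 and Dll1 were not tested in some comparisons of the Cx3cr1 positive fraction, and Jag1 not between negative fractions. Of 60 group means of CPM 11 moved beyond the spread of replicates under TMM-scaled CPM, 9 of them in the Aldh1l1 positive fraction. The fewest counts behind a value are those of Dll1, 26 in the Aldh1l1 positive fraction of mouse 290 and 27 in the whole tissue of mouse 210.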
